A study of Mus musculus with 5 samples.

Results

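The genes described here are 32 genes of the lysosome, chosen by name: hydrolases and their activators, proteins of the lysosomal membrane, the lysosomal transcription factors of the MiT/TFE family and a pair of proton pump subunits. Cathepsins were left out of the list. All 32 were matched among the 21631 protein-coding genes of chromosomes 1 to 19 and X in RefSeq's GRCm38.p6 annotation, which shares its chromosome positions with mm10. For each gene the question was whether binding of PU.1, the myeloid transcription factor encoded by Spi1, was gained next to it.

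PU.1 binding had been mapped by ChIP-seq, the sequencing of DNA precipitated with an antibody (T-21), in AML-246, a mouse acute myeloid leukaemia. Cells of both groups were spleen cells of leukaemic C57BL/6 mice, lacked p53 and carried a GFP-linked short hairpin RNA against PU.1. In the PU.1 low group (2 libraries, untreated mice) the hairpin held PU.1 down, and in the PU.1 high group (3 libraries, mice given doxycycline for 2 days) the hairpin was shut off and endogenous PU.1 returned. The labels call the libraries of a group technical replicates, and the series concerns this 1 leukaemia.

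The data are 1 list of 11111 peak summits that sets PU.1 high against PU.1 low, of which 11106 lay on the chromosomes used. Each summit, called a site below, has a position and the authors' score on a −log10 scale. Over these sites the score ran from 1.32 to 43.3, with a median of 8.56 and quartiles of 5.78 and 11.9. A score says how surely a site stood out, not how much PU.1 was bound. The list holds no value per library, so no spread between libraries, no depth and no test of a difference between the mice can be given. Intervals are 95% Wilson intervals for shares and exact Poisson intervals for counts, and cover counting error only. For the median of the best scores, the interval bounds are taken from the ranked scores of the genes.

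Lysosomes are the acidic compartments in which cells break down lipids, glycans and proteins. Hydrolases in the lumen each cleave a particular bond, membrane proteins hold the compartment together and move products out, and a proton pump, the V-ATPase, keeps the lumen acidic. Macrophages and other phagocytes are rich in lysosomes, since they digest what they engulf. The MiT/TFE factors, among them TFEB, TFE3 and MITF, switch on many lysosomal genes through a DNA element built around the letters CACGTG. PU.1 itself binds sequences with a GGAA core, often within the letters GAGGAAG.

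At 2 of the 28 genes with a RefSeq promoter entry, Tfeb and Man2b1, a site lay in the promoter window, which covers 250 bases before to 50 bases after an annotated transcription start. Among other protein-coding genes with an entry, 3.03% had a site there. The 2 windows are shown because they are the promoters that hold a listed site. They are printed 5′ to 3′ on the strand of the gene, from RefSeq's GRCm38.p6, with GGAA on either strand (read as TTCC on the other strand) and GAGGAAG (read as CTTCCTC) in capitals.
Tfeb, chr17:47736787-47737086, plus strand: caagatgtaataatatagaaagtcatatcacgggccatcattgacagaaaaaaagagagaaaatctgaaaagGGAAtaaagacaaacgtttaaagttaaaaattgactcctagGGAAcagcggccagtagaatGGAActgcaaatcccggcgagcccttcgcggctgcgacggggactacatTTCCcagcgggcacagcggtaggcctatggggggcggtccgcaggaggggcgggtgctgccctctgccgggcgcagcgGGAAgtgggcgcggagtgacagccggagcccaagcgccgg
Man2b1, chr8:85083019-85083318, plus strand: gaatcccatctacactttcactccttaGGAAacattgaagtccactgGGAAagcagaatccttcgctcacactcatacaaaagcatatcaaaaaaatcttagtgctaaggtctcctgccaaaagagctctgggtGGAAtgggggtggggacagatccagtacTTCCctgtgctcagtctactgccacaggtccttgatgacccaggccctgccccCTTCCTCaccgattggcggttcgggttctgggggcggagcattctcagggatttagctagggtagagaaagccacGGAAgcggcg
In the Tfeb window the summit lay 5 bases after the start, and the centre of the nearest of its 5 GGAA cores was 6.5 bases from the summit. In the Man2b1 window the summit lay 62 bases before the start, with 6 GGAA cores, of which the nearest was centred 24.5 bases from it. The Man2b1 window also held GAGGAAG on the opposite strand, at 35 to 29 bases before the start. Both scores were low, 3.68 for Tfeb and 2.26 for Man2b1, below the lower quartile of all sites. GGAA stood in the windows of all 28 genes and of 96.3% of the other genes, so its presence sets no gene apart.

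Of the 32 lysosome genes, 15 (46.9%, interval 30.9 to 63.6) had at least 1 site within 10 kb of either end of the gene, against 22.3% of the 21599 other protein-coding genes. They were Npc2, Lipa, Psap, Hexa, Gla, Galc, Gusb, Arsb, Naglu, Man2b1, Tpp1, Grn, Tfeb, Mitf and Atp6v0d1. The other 17 had none at that distance. The 15 genes held 24 sites, with 9 genes holding 1 site, 4 holding 2, Npc2 holding 3 and Grn holding 4. Genes with 2 or more sites made up 18.8% of the lysosome genes (6 of 32) and 5.39% of the others. The genes were listed with earlier results of these data known, so these shares describe the list and no test of it was made.

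**Figure D1:**
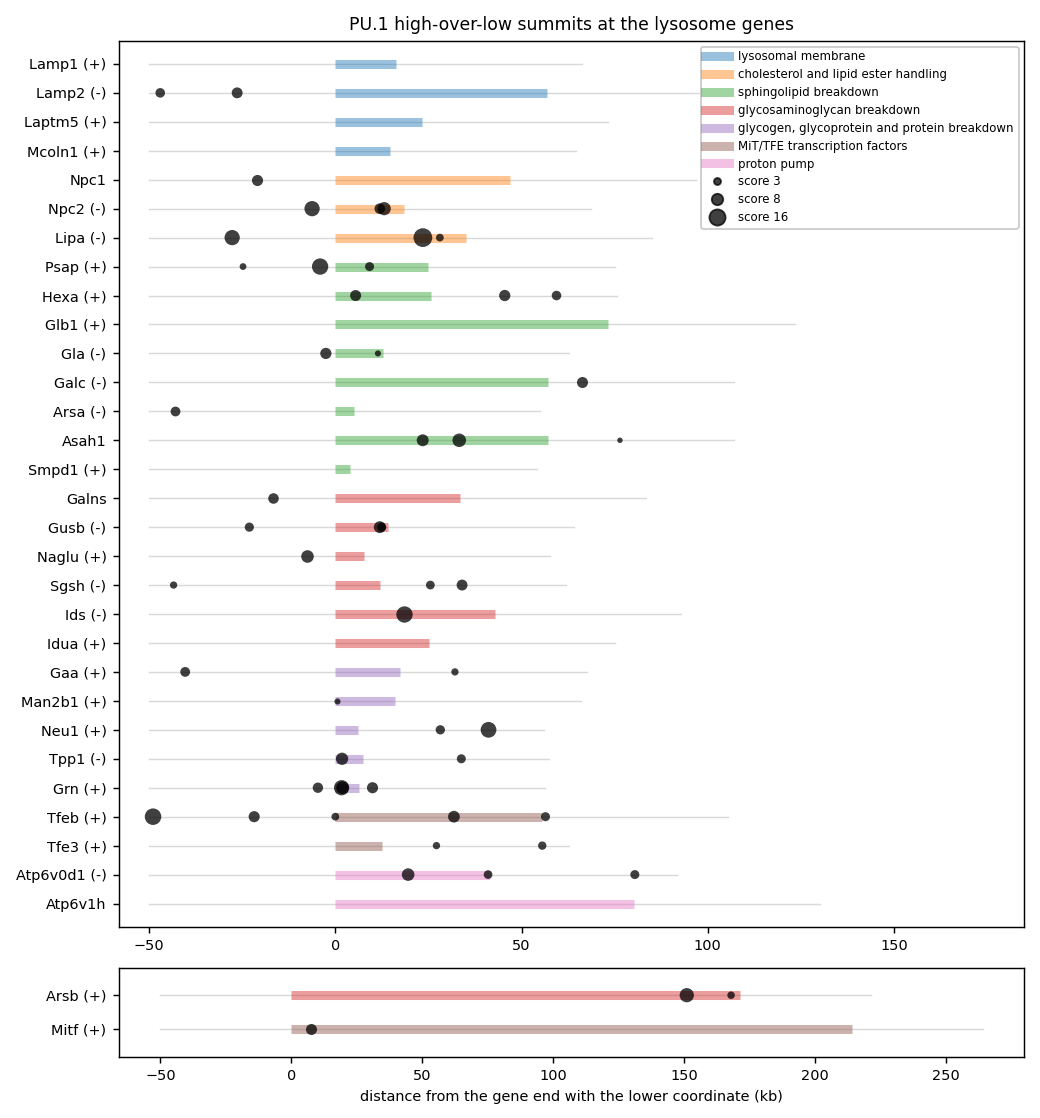
Sites at each of the 32 lysosome genes, by distance in kb from the gene end with the lower coordinate. Coloured bars are the genes by role, grey lines the 50 kb on each side, and black points the sites, with an area in proportion to the score; + and - give the strand where RefSeq's promoter table held the gene. The 2 longest genes, Arsb and Mitf, have their own scale, and 7 genes have no point.

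The difference from other genes depended on the distance and on the score. Within 1 kb of a gene end, 3 lysosome genes (9.38%) had a site (Man2b1, Tfeb and Atp6v0d1), against 6.40% of other genes. Within 5 kb it was 9 genes (28.1%, other genes 15.1%), within 25 kb 23 genes (71.9%, 36.1%) and within 50 kb 25 genes (78.1%, 49.5%). When sites had to score at least 10, 3 lysosome genes (9.38%) had one within 10 kb, against 9.08% of other genes, a difference of 0.291 percentage points. These 3 were Npc2, Psap and Grn. The other 20 of the 24 sites scored below 10.

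**Figure D2:**
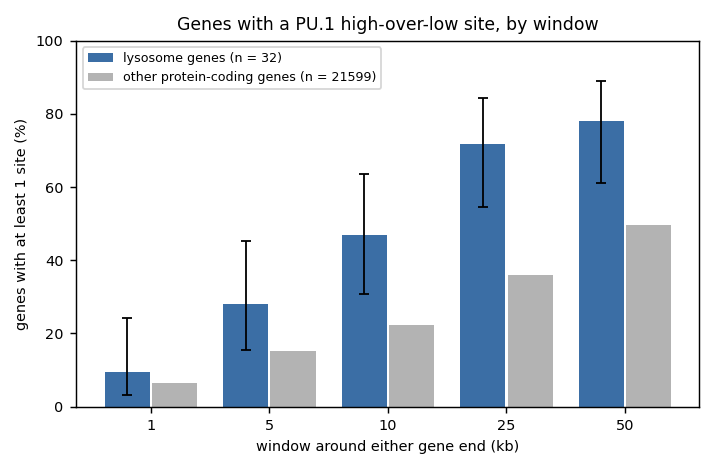
Percent of genes with at least 1 site within 1 to 50 kb of either gene end, for the 32 lysosome genes (blue, with 95% Wilson intervals) and 21599 other protein-coding genes (grey). The blue bar is above the grey one in each window, by 2.97 percentage points at 1 kb and 24.5 at 10 kb.

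The sites within 10 kb of an end of the 32 genes had a lower median score than sites at large. The median of the 24 was 7.47, with a range from 2.26 to 16.3, whereas sites within 10 kb of other protein-coding genes had a median of 8.35. Of the 24, 8 were at or above the median of all sites, and 4 (16.7%) scored at least 10, against 37.4% of all sites. Taking the best site of each gene, the median was 7.48 over the 15 lysosome genes (interval 4.62 to 9.71) and 8.81 over the other genes with a site. With a window of 50 kb these medians were 8.68 and 10.3. When sites anywhere in the gene span or within 10 kb of it counted, the order turned, with 9.71 over 17 lysosome genes and 9.57 over the others. The lower median within 10 kb of an end did not extend to each of the further lysosome gene lists. Their medians of the best score were 11.0 for other hydrolases (17 genes with a site), 9.82 for other membrane proteins (17) and 10.3 for MiT/TFE control (5). For other proton pump subunits the median was 7.99 (9 genes), and for hydrolase sorting 7.38 (10 genes).

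**Figure D3:**
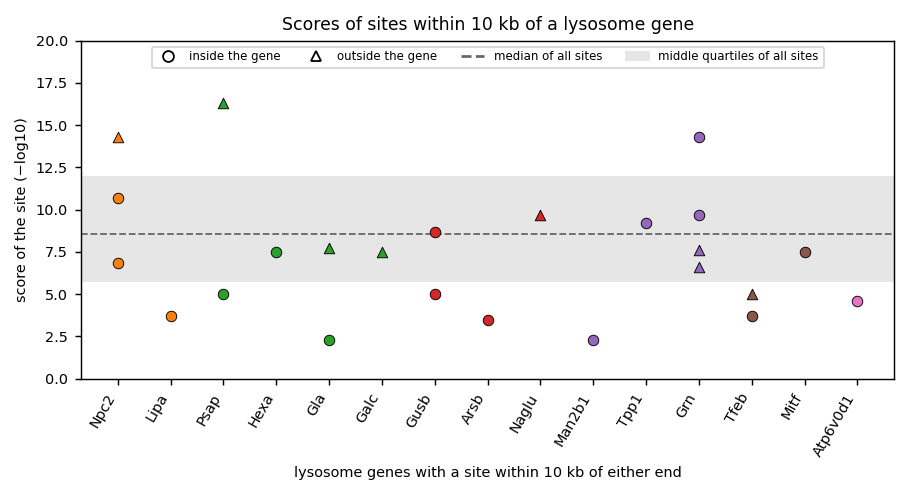
Scores (−log10) of the 24 sites within 10 kb of a lysosome gene, by gene and coloured by role as in the map of sites. Circles lie inside the gene and triangles outside, the dashed line is the median of all sites (8.56) and the grey band runs from the lower to the upper quartile (5.78 to 11.9). Psap, Npc2 and Grn have the highest points, at 16.3, 14.3 and 14.3.

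Most of these sites lay inside the genes. Of the 24, 16 (66.7%) were inside the lysosome gene, 4 upstream and 4 downstream of it. Inside means between the gene ends in RefSeq, so the Man2b1 site counted although it lay 62 bases before a transcription start. For other protein-coding genes, 37.9% of the gene and site pairs within 10 kb of an end had the site inside the gene. A site anywhere inside the gene was found in 15 lysosome genes (46.9%), against 16.6% of other genes. The lysosome genes were longer, with a median span of 24.1 kb (4.03 to 214 kb) against 17.3 kb. Other genes within that range of spans had a site within 10 kb in 25.4% of cases. For 19 of the 24 sites (79.2%, interval 59.5 to 90.8) the lysosome gene was also the gene with the nearest end, against 70.3% of gene and site pairs at other genes.

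Within 50 kb of their ends the 32 genes had 55 pairs of gene and site, or 1.72 per gene (interval 1.29 to 2.24), against 1.0 per other gene. The SD over genes was 1.33 for the lysosome genes and 1.39 for the others. The median was 2 sites per lysosome gene and 0 per other gene. Counting sites with a score of at least 10 alone, the order turned, with 0.344 per lysosome gene and 0.367 per other gene. When a site counted for its nearest gene alone, the means were 0.844 and 0.394. Of the lysosome genes, 7 had 0 sites at this distance, 8 had 1, 7 had 2, 8 had 3, Grn had 4 and Tfeb had 5. Genes with 3 or more made up 31.2% of the lysosome genes and 12.9% of the others. A single site, 14.6 kb from Gaa and 43.4 kb from Sgsh on chromosome 11, was counted for both.

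Among the genes of cholesterol and lipid ester handling, Npc2 and Lipa held sites and Npc1 did not within 10 kb. Npc2 (chromosome 12, 84754559 to 84773112), the soluble lysosomal protein that hands cholesterol to NPC1, had 3 sites. The highest-scoring, at 14.3, lay 6.23 kb downstream of the gene at 84748329. The other 2 lay inside it, 5.42 and 6.61 kb from its start, with scores of 10.7 and 6.85. All 3 had Npc2 as the nearest gene.

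Lipa (chromosome 19, 34492316 to 34527474) encodes the acid lipase that splits cholesteryl esters. It carried the highest-scoring of the 54 different sites within 50 kb of the lysosome genes, 21.6, at 34515831 inside the gene. That site was 11.6 kb from the nearer end and thus just outside the 10 kb window. Lipa counted as a gene with a site through another one, 7.09 kb inside, with a score of 3.68. A further site of score 14.2 lay 27.7 kb downstream and 9.15 kb from Ch25h, the gene of cholesterol hydroxylase, which was its nearest gene. Npc1, the membrane partner of NPC2, had 1 site within 50 kb. It scored 7.59 and stood 21.1 kb from the lower end of Npc1 and 144 bases from an end of Rmc1.

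Of the 8 sphingolipid genes, Psap, Hexa, Gla and Galc had a site within 10 kb. Psap (chromosome 10, 60277628 to 60302600) encodes prosaposin, the precursor of the activator proteins that present sphingolipids to their hydrolases. Its leading site, with a score of 16.3, stood 4.07 kb upstream of the gene at 60273554 and was the highest-scoring of the 24. A site of score 4.99 lay inside Psap, 2.37 kb after an internal start, and one of 2.82 lay 24.8 kb upstream. Each of these had Psap as the nearest gene.

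Gla, the gene of alpha-galactosidase A on chromosome X, held a low-scoring site, at 2.26, that lay 1.39 kb after its start. Its other site, of score 7.75, lay 2.53 kb downstream but 16 bases from an end of Rpl36a, a ribosomal protein gene. Hexa, which encodes the alpha chain of beta-hexosaminidase, held a site 5.46 kb after its start that scored 7.47. An end of Tmem202 was slightly nearer to it, at 5.33 kb. Galc, the gene of galactosylceramidase, had its site, scoring 7.48, at 9.15 kb upstream and 28 bases from an end of Gpr65, the gene of a proton-sensing receptor. Just inside the 10 kb limit were this site and the inner Psap site at 9.20 kb. Just outside the limit were the highest-scoring Lipa site at 11.6 kb and the nearest Sgsh site at 13.5 kb.

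Asah1, the acid ceramidase gene, had no site within 10 kb of its ends and 2 well inside, at 23.5 and 23.7 kb from the nearer end, with scores of 8.72 and 11.2. Of the inner sites, the one scoring 11.2 was nearer to an end of Frg1, at 15.3 kb. The site nearest to an end of Asah1 lay outside the gene, 19.4 kb beyond the upper end, with a score of 1.82 and 75 bases from an end of Frg1. Arsa, the gene of the sulphatide-cleaving arylsulphatase A, had 1 site 43.0 kb away. Glb1, which encodes beta-galactosidase, and Smpd1, which encodes acid sphingomyelinase, had 0 sites within 50 kb. Their nearest sites were 208 and 68.5 kb away.

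Of the 7 glycosaminoglycan genes, Gusb, Arsb and Naglu had a site within 10 kb. Gusb (chromosome 5, 129989011 to 130003049), the beta-glucuronidase gene, had 2 sites inside the gene, 1.57 and 2.10 kb from its start, with scores of 4.99 and 8.68. Arsb, the arylsulphatase B gene, held a site 3.32 kb before its far end (score 3.48) and one of 12.5 deeper inside, 20.2 kb from that end. Naglu, which encodes an enzyme of heparan sulphate breakdown, had its site 7.72 kb upstream, with a score of 9.71. It fell inside Atp6v0a1, the neighbouring gene of a V-ATPase subunit, 1.35 kb from an end of that gene.

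Ids (chromosome X, 70343069 to 70385834), the iduronate sulphatase gene, had its 1 site inside the gene at 70361640, with a score of 16.4. It was 18.6 kb from the nearer gene end but 3.44 kb after an annotated internal start. With the distance taken to transcription starts, 15 of the 28 genes with an entry had a site within 10 kb, against 17.5% of other genes. Ids entered the count and Arsb left it. Sgsh, the sulphamidase gene, and Galns, a sulphatase gene of keratan sulphate breakdown, had their nearest sites 13.5 and 16.7 kb away, and Idua, the alpha-iduronidase gene, had 0 within 50 kb.

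Among the genes of glycogen, glycoprotein and protein breakdown, Grn, Tpp1 and Man2b1 had a site within 10 kb. Grn (chromosome 11, 102430507 to 102436809) encodes progranulin, a secreted and lysosomal protein that is cut into granulins. It had the most sites within 10 kb of the 32 genes. One of score 6.59 lay 4.67 kb upstream, 2 lay inside the gene, 254 bases apart, with scores of 14.3 and 9.68, and one of 7.59 lay 3.69 kb downstream, inside the next gene Fam171a2.

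Tpp1 (chromosome 7, 105744811 to 105752282), the tripeptidyl peptidase gene, held a site 1.82 kb before its far end, with a score of 9.24. Man2b1 encodes lysosomal alpha-mannosidase, and the site in its printed promoter was its only one within 50 kb. Gaa, the acid alpha-glucosidase gene of glycogen breakdown, had its nearest site 14.6 kb downstream, 42 bases from an end of Eif4a3. Neu1, the sialidase gene, had its nearest site 22.2 kb downstream. A second site at 35.1 kb from Neu1, with a score of 15.2, lay 235 bases from an end of the heat shock gene Hspa1a.

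The MiT/TFE genes differed in the sites around them. Tfeb (chromosome 17, 47737037 to 47792416) had 5 sites within 50 kb, more than any other of the 32. Besides the one at its start, with a score of 3.68, a site of 8.46 lay inside the gene, 23.5 kb from its upper end, and one of 4.99 lay 1.06 kb downstream. The other 2 were upstream. One of score 7.57 lay 21.8 kb away and was nearer to an end of Frs3, at 11.0 kb. The highest-scoring of the 5, at 16.7, lay 48.9 kb away and 277 bases from an end of Tomm6.

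Mitf (chromosome 6, 97807002 to 98021360), the longest of the 32 genes, had 1 site, 7.38 kb after its first annotated start, with a score of 7.48. Tfe3 on chromosome X had its nearest site 14.5 kb downstream, with a score of 3.30 and 274 bases from an end of Gripap1. Of the 4 lysosome genes on chromosome X, Gla had a site within 10 kb, against 8.32% of other genes of that chromosome. Without chromosome X the share was 50% (14 of 28) against 23.0% of other genes.

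None of the 4 membrane genes had a site within 10 kb. Lamp1 and Lamp2, which encode the major glycoproteins of the lysosomal membrane, Laptm5, a gene of a lysosomal membrane protein of blood cells, and Mcoln1, the gene of a lysosomal cation channel, all had 0. Lamp2 had 2 sites within 50 kb, the nearer of score 7.29 at 26.3 kb downstream. The nearest sites of Lamp1, Laptm5 and Mcoln1 were 113, 103 and 106 kb away. With 4 genes the interval of a share is wide, and no difference between roles was tested.

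Of the proton pump genes, Atp6v0d1, a subunit gene of the membrane-embedded part, held a site 586 bases after its start, with a score of 4.62. A second site inside it, 19.6 kb from the nearer end, scored 9.71. Atp6v1h, a subunit gene of the cytosolic part, had its nearest site 1256 kb away, the farthest of the 32.

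The promoters were searched on both strands for TCACGTGA, a long form of the MiT/TFE element, and for the CACGTG within it. TCACGTGA stood in the windows of 3 of the 28 genes with an entry (10.7%, interval 3.71 to 27.2), Gla, Mcoln1 and Atp6v0d1, against 1.41% of other genes. CACGTG stood in 9 (32.1%, interval 17.9 to 50.7), against 8.98%. These included Lamp1, whose window held 4. Over all 21045 windows of these protein-coding genes, 1.24% held TCACGTGA and 7.91% held CACGTG. The 4 windows with the most or longest matches are shown, with both motifs and GAGGAAG (or CTTCCTC) in capitals.
Gla, chrX:134600956-134601255, minus strand: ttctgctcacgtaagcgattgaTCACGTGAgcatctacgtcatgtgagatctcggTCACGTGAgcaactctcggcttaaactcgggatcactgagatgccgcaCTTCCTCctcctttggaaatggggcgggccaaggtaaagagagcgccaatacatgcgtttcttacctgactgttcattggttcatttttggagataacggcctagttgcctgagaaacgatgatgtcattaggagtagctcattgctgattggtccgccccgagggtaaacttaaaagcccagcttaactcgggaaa
Mcoln1, chr8:3500269-3500568, plus strand: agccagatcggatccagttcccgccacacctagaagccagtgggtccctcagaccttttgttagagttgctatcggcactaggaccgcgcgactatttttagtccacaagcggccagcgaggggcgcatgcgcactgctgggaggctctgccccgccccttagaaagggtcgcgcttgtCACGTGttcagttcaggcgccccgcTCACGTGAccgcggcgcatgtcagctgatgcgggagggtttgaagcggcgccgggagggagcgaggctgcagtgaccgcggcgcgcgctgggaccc
Atp6v0d1, chr8:105566015-105566314, minus strand: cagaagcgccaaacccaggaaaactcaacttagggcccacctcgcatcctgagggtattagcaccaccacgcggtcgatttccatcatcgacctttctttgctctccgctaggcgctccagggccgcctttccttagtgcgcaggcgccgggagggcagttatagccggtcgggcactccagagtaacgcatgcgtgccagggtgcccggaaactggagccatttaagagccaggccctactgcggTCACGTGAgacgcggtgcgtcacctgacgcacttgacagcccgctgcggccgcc
Lamp1, chr8:13158911-13159210, plus strand: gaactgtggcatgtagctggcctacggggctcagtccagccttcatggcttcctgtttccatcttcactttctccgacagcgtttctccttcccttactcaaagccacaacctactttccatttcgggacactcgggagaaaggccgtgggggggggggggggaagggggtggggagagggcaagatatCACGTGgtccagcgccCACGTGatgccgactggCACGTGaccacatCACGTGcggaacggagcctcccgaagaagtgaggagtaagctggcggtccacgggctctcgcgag
Among these, Gla and Atp6v0d1 had a PU.1 site within 10 kb, and Lamp1 and Mcoln1 had none within 50 kb. Of the 9 genes with CACGTG, 3 had a site within 10 kb and 6 had none. All 15 lysosome genes with such a site were among the 28 with an entry, and 22.3% of other protein-coding genes had one. A relation between CACGTG and PU.1 sites was not tested. The PU.1 letters GAGGAAG stood in 5 of the 28 windows (17.9%, interval 7.88 to 35.6), those of Gla, Gusb, Laptm5, Lipa and Man2b1, against 15.1% of other genes. The 8 letters of a C/EBP element, TTGCGCAA, stood in 1 of the 28 windows (3.57%, interval 0.633 to 17.7), that of Ids, against 0.244% of other genes. A match describes the letters of these windows and is not a bound site.

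The other genes of the lysosome were described with 5 lists that hold 130 further genes, of which 58 (44.6%, interval 36.3 to 53.2) had a site within 10 kb. Among the other hydrolases and activators it was 17 of 33 (51.5%), led by Smpdl3a, a sphingomyelinase-like gene (score 19.7, 1.39 kb beyond its lower end), Naaa (16.4) and Gm2a, the gene of the GM2 activator (15.5). Among the other membrane proteins and transporters it was 17 of 31 (54.8%), led by Slc66a1 (16.1), Mcoln3 (15.9) and the amino acid sensor gene Slc38a9 (15.3). Other proton pump subunits had a site in 9 of 18 cases (50%), led by Atp6v1b2 (14.2), Atp6ap2 (12.0) and Atp6v1a (10.8). The sites of Slc66a1 and Atp6v1b2 lay inside these genes but nearer to an end of a neighbour, Akr7a5 and Slc18a1.

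The list of hydrolase sorting had a site in 10 of 25 cases (40.0%), led by the retromer gene Vps35 (14.5), Vps18 (10.2) and Ap3d1 (10.1). The control of the MiT/TFE factors and nutrient sensing had one in 5 of 23 cases (21.7%), close to the 22.3% of other genes. Its highest sites were those of Rraga (20.3), Ppp3cb (15.8) and Rheb (10.3), genes of signalling to the kinase mTOR or, for Ppp3cb, of the phosphatase calcineurin. At 2.93 kb, Rraga was not the gene nearest to its site, which was Haus6. No difference between these lists was tested.

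**Figure D4:**
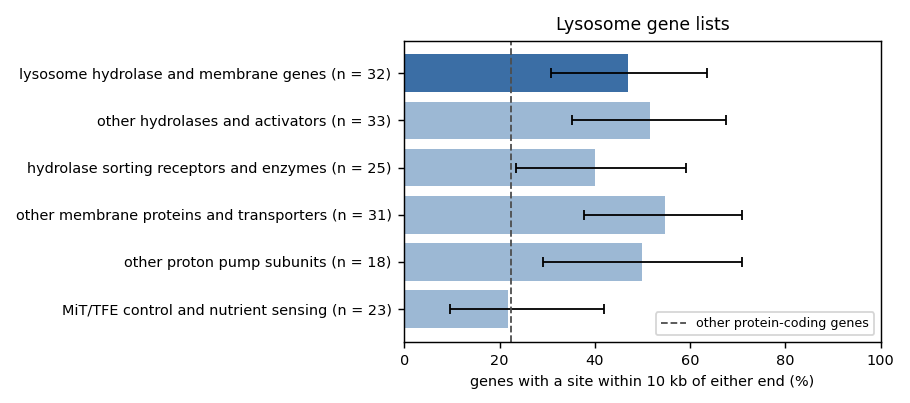
Percent of genes with a site within 10 kb of either end in the 32 lysosome genes (dark blue) and in 5 further lists of lysosome genes (light blue), with 95% Wilson intervals. The dashed line marks the 22.3% of other protein-coding genes, and the list of MiT/TFE control and nutrient sensing, at 21.7%, lies next to it.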

How the data were processed

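The authors' deposited file lists peak summits of the series, and its score per summit is a −log10 value (of a p-value or a q-value, which is not stated). The tools were MACS2 and CASAVA 1.8.2 and the build mm10, per the submitters' processing notes. Not given in the sources used here are the aligner, the MACS2 settings, the pooling of libraries and any depth per sample. The peak names set high against low, so sites bound equally before and after doxycycline should mostly be missing from it, as far as the unknown settings allow.

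Summits were joined to RefSeq GRCm38.p6 genes by distance to either gene end (10 kb and 50 kb, inclusive) with pandas 2.3.3, and intervals came from SciPy 1.17.1. All other protein-coding genes were the background. The distance search was checked on simulated data. Strands and transcription starts came from RefSeq's promoter table. All 32 genes are named, and of each further list the 3 genes with the highest-scoring site within 10 kb. Members and lists were chosen with earlier results of these data known. Alternatives were other windows, score minimums, assignments and gene sets. Summits outside chromosomes 1 to 19 and X were left out.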

Additional observations from a re-analysis of the deposited data

How the results depend on the processing

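The share of lysosome genes with a site within 10 kb, 46.9%, was 9.38%, 28.1%, 71.9% and 78.1% in windows of 1, 5, 25 and 50 kb, as the construction of a window implies, and 9.38% at a score of at least 10. Its difference from other genes, 24.5 percentage points, was 2.97 at 1 kb and 0.291 at a score of at least 10. It was 12.6 to 36.0 under the other 9 settings. These included 5, 25 and 50 kb, a score of at least 5, gene spans, and transcription starts (the 28 genes with an entry). The rest were nearest end only, no chromosome X, and other genes within the range of spans of the lysosome genes. Spans were not matched within that range. Sites per gene within 50 kb, 1.72, fell to 0.344 at a score of at least 10 (other genes 0.367, so that the order turned) and 0.844 when a site counted for its nearest gene alone (0.394). The median best score within 10 kb, 7.48 (other genes 8.81), was 8.68 at 50 kb (10.3). With gene spans plus 10 kb it was 9.71 (9.57), so that the order turned. The further lists gave 78.8% (hydrolases), 76.0% (sorting), 67.7% (membrane), 83.3% (proton pump) and 65.2% (MiT/TFE control) at 50 kb, against 49.5% of other genes. At a score of at least 10 they gave 27.3% (hydrolases), 12.0% (sorting), 25.8% (membrane), 16.7% (proton pump) and 13.0% (MiT/TFE control), against 9.08% of other genes. Of promoters of the 28 genes, 85.7% held AGGAA in place of GAGGAAG, against 67.7% of other genes, and 32.1% held CACGTG in place of TCACGTGA. No paired analysis was possible because no column of the list belongs to a single library, which also means that libraries could not be left out in turn. Without depth, a gene with no site cannot be told from one whose site was too weak to be called.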

Other observations

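Scores repeated across sites. The 11106 sites carried 1330 different scores, and 95.1% of sites shared theirs with another site. At the lysosome genes, 5 of the 54 different sites within 50 kb, at Gusb, Psap, Tpp1, Tfeb and Atp6v0d1, had the same score of 4.99, which 148 sites of the whole list had.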
